A study of Oryza sativa with 12 samples.

Results

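Aquaporins are membrane channel proteins that carry water and small uncharged solutes across cell membranes. The plant family is divided by sequence and location. Plasma membrane intrinsic proteins (PIPs) fall into the groups PIP1 and PIP2, tonoplast intrinsic proteins (TIPs) sit in the vacuolar membrane, NOD26-like intrinsic proteins (NIPs) include channels for silicic and boric acid, and small basic intrinsic proteins (SIPs) were placed in the endoplasmic reticulum in Arabidopsis. In maize, PIP1 proteins reach the plasma membrane when made together with PIP2 proteins. In leaves aquaporins take part in moving water from the veins to the mesophyll, and in growing organs in the uptake of water that enlarges cells.

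The members are the rice genes whose symbol or RefSeq synonym is a PIP, TIP, NIP or SIP name with its numbers, and that have a probe set listing them alone. Of 29 such genes in the RefSeq table, 25 have 1 or more of these probe sets, 31 in all, out of 57194 probe sets on the array that are not controls. NIP1-2, NIP3-3, PIP2-3 and TIP5-1 have none and were not analysed here. Each gene is represented by its brightest probe set. In all 23 of the 25 genes were among the 34316 probe sets bright enough to be tested, and NIP3-1 and PIP2-8 were not. By subfamily 3 of 3 PIP1, 6 of 7 PIP2, 8 of 8 TIP, 4 of 5 NIP and 2 of 2 SIP genes were tested.

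The samples were total RNA from field-grown rice (Oryza sativa) of KMR3, a rice line, and of IL50-7, an introgression line that carries donor chromosome segments in another line's background and that the series title calls high yielding. In each line the flag leaf, the uppermost leaf under the panicle, and the young panicle after it had fully emerged were each hybridised to 3 Affymetrix rice arrays, which gave 12 arrays in 4 groups. The labels call the 3 arrays of a group biological replicates without giving the plants or pools behind them, the age of the plants or the donor segments. Levels are log2 intensities after quantile normalization, which gives every array the same distribution with a highest value of 13.93. A signal above log2 4.01 was taken as above background, and a value of 0.26 is the floor given to the dimmest signals. Differences are log2 differences with their standard error (SE) from limma, and a difference was called at a Benjamini-Hochberg adjusted p under 0.05 over all 34316 probe sets. An intensity depends on the probe as well as on the RNA, so levels of different genes are not ranked.

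The arrays matched their organ labels. In the panicle 11 of 13 tested floral organ markers were higher in KMR3 and 12 of 13 in IL50-7, while 6 of 6 leaf markers were lower in KMR3 and 5 of 6 in IL50-7. All 3 secondary wall cellulose synthases (CESA4, CESA7 and CESA9) and both meristem markers were higher in the panicle in both lines, as were 6 of 7 tapetum and pollen markers in KMR3 and 5 of 7 in IL50-7. Of 2 tested root markers 0 were called in either line. Summed intensity of the leaf markers ran from 38344 to 42747 over the leaf arrays and from 16953 to 24937 over the panicle arrays, where 1 of the 6 genes lay below background on every panicle array of each line. The ratio of 3' to 5' signal for GAPDH, which rises as RNA is degraded, was 2.54 to 6.32 in leaves and 7.68 to 23.3 in panicles. The GAPDH ratio and the organ cannot be told apart in any panicle to leaf difference given here. The same ratio for actin overlapped between the organs, at 5.17 to 9.40 in leaves and 4.95 to 13.4 in panicles, and in IL50-7 panicles 1 and 3 it lay below that of every leaf of the line.

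Among the panicles, KMR3 replicate 3 and IL50-7 replicate 2 went against their labels. Of 20 probe sets that were on in the flag leaves of one line and below background in those of the other, 5 were also split among the panicles. These 2 arrays had the state of their own line's leaves at 0 of the 5, and the other 4 panicle arrays at 5 of the 5. The line comparison in the panicle is therefore given with and without this pair. A different pair, KMR3 panicle 3 and IL50-7 panicle 1, had the highest signal for RAFTIN1, a tapetum gene (11.06 and 10.97 against 4.92 to 7.77 in the other panicles). The same pair had the lowest signal for RCA, which encodes rubisco activase (11.74 and 11.84 against 12.90 to 13.12). Over all tested probe sets the deviations of these 2 arrays from their group means correlated at r = 0.59. Their likeness is therefore not particular to the aquaporins for which it is pointed out below. On IL50-7 panicle 3 the tapetum genes C6 (8.61) and CYP703A3 (1.42) were lowest. The markers RTS, TDR, RAFTIN1 and GAMYB were also lowest there among the panicles. PTC1, the remaining tapetum and pollen marker, went the other way. It was highest on IL50-7 panicle 3 (5.38) and lowest on IL50-7 panicle 1 (3.61) and KMR3 panicle 3 (4.14).

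More aquaporin genes were called lower than higher in the panicle, except in KMR3 on the deposited scale, without normalization between arrays, where 5 were called each way. After normalization, in KMR3, 8 of 23 tested genes were lower in the panicle than in the flag leaf (all probe sets, 25%) and 4 were higher (all probe sets, 22.5%). In IL50-7, 9 were lower (all probe sets, 23.2%) and 2 were higher (all probe sets, 22.4%). The shares of members called lower were above those of all probe sets and the shares called higher below them. This contrast was not tested. In IL50-7 the deposited scale gave 8 lower and 3 higher. Of all 34316 probe sets that scale gave 4190 lower and 8874 higher in KMR3, and 4705 lower and 6682 higher in IL50-7. On that scale 67.9% of all calls in KMR3 were higher in the panicle instead of 47.4%, and with equal array medians 59.99%. In IL50-7 the share was 49.1%, 58.7% on the deposited scale and 51.1% with equal medians. The median difference over all probe sets was -0.11 in KMR3 and -0.06 in IL50-7, against 0.31 and 0.15 on the deposited scale.

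Of the tested genes 8 were called lower in both lines: PIP1-1, PIP1-3, PIP2-2, PIP2-7, TIP1-2, NIP2-2, SIP1-1 and SIP2-1. PIP2-4 and TIP4-2 were called higher in both. TIP3-1 and NIP4-1 were called higher in KMR3 and PIP2-5 lower in IL50-7, and 10 genes were called in neither line. The panicle to leaf differences had the same sign in both lines for 21 of 23 genes, the exceptions being PIP2-1 and TIP3-2. The differences of the lines share no arrays, and across the 23 genes they correlated at r = 0.93 (rho = 0.89), which describes these genes and is no test. In KMR3 the arrays of the organs did not overlap for 9 genes lower in the panicle (all probe sets, 31.5%) and 5 higher (all probe sets, 27.8%), and in IL50-7 for 9 lower (all probe sets, 28.4%) and 6 higher (all probe sets, 25.6%). RNA was taken from whole organs, so fewer cells of a type and less RNA per cell cannot be told apart.

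**Figure D1:**
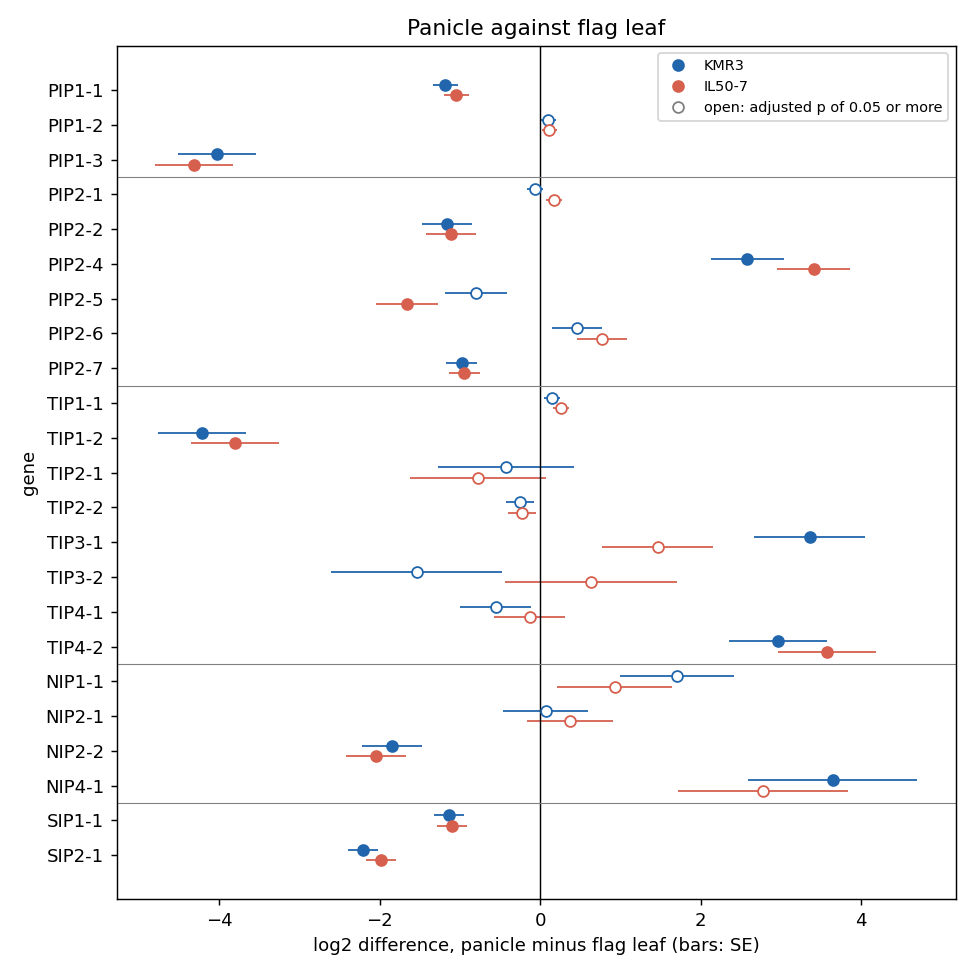
Panicle minus flag leaf log2 difference (x axis) of each tested aquaporin gene (y axis) in KMR3 and IL50-7, with bars for the SE and open points where the adjusted p was 0.05 or more. PIP1-3 and TIP1-2 lie near -4 in both lines and PIP2-4 and TIP4-2 above 2.5.

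**Figure D2:**
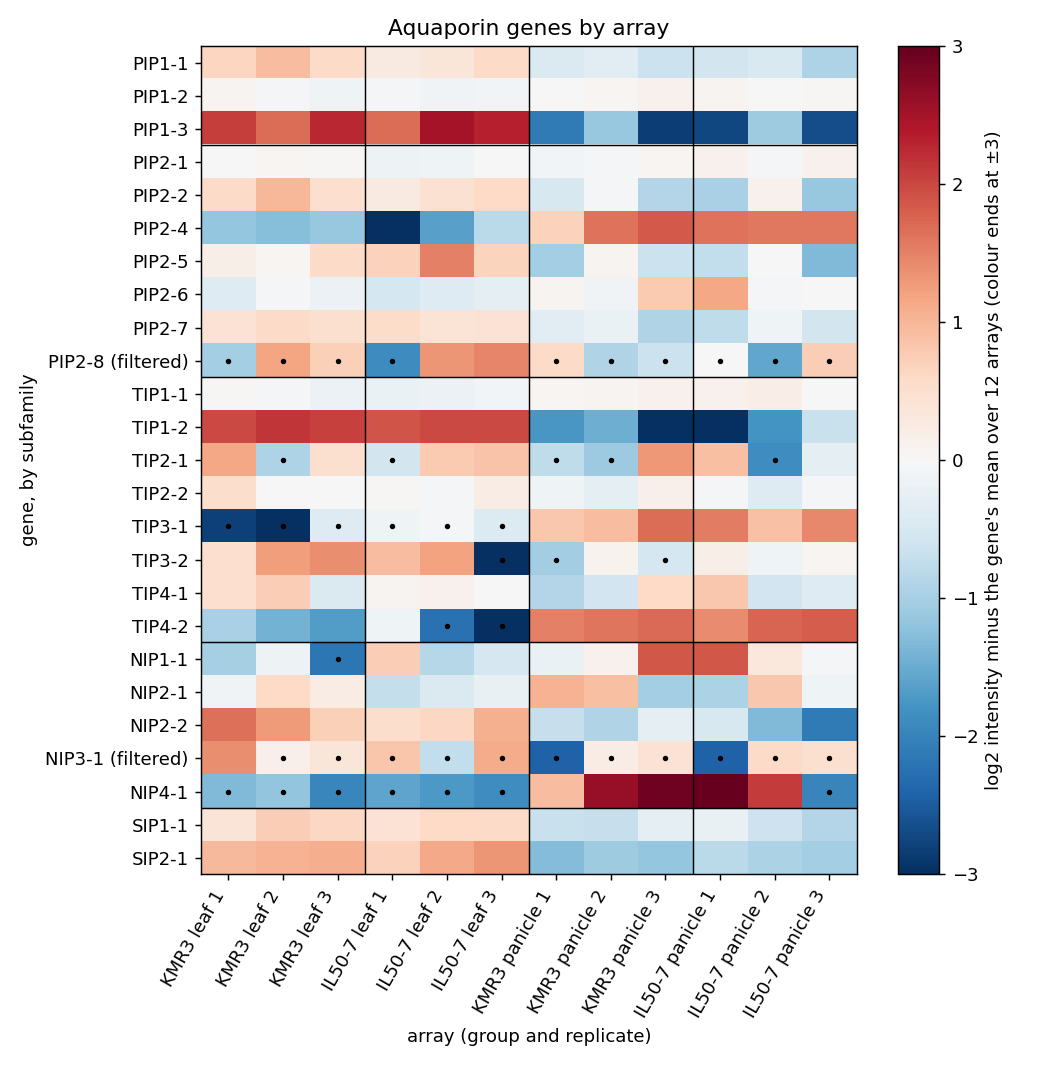
Log2 intensity of each aquaporin gene (y axis) on each of the 12 arrays (x axis), as the colour of its distance from the gene's mean over all arrays. The panicle columns of PIP1-3 and TIP1-2 are the lower ones and those of PIP2-4 and TIP4-2 the higher ones in both lines.

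In the PIP1 group 2 of 3 genes fell in the panicle of both lines. PIP1-3 (LOC4331194, chromosome 2, also called RWC3), a plasma membrane water channel studied in rice under water deficit, was 16.3-fold lower in the panicle of KMR3 and 19.9-fold lower in that of IL50-7. It read 12.24, 11.86 and 12.45 in KMR3 leaves and 8.06, 9.05 and 7.36 in KMR3 panicles. In IL50-7 it read 11.86, 12.67 and 12.52 in leaves and 7.45, 9.13 and 7.51 in panicles. Every panicle array lay below every leaf array, and panicle replicate 2 was the highest of its group in both lines. Group means were 12.18 ± 0.30 (SD, n = 3) and 8.16 ± 0.85 in KMR3, and 12.35 ± 0.43 and 8.03 ± 0.95 in IL50-7, so the panicles were the more variable organ. The differences were -4.03 ± 0.49 in KMR3 (limma adjusted p = 5.45e-05) and -4.32 ± 0.49 in IL50-7 (limma adjusted p = 3.23e-05).

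PIP1-1 (LOC4330248, chromosome 2, also called RWC1), another plasma membrane member, moved the same way by less. Its levels were 12.31, 12.59 and 12.23 in KMR3 leaves, 11.24, 11.32 and 11.02 in KMR3 panicles, 11.94, 12.04 and 12.24 in IL50-7 leaves, and 11.11, 11.22 and 10.75 in IL50-7 panicles. The organs did not overlap in either line. The fall was -1.18 ± 0.16 in KMR3 (2.27-fold, limma adjusted p = 0.000121) and -1.04 ± 0.16 in IL50-7 (2.06-fold, limma adjusted p = 0.00029). PIP1-2 (LOC9270874, chromosome 4) stayed between 13.01 and 13.26 on all 12 arrays, close to the top of the scale. Its differences, 0.10 ± 0.09 in KMR3 and 0.11 ± 0.09 in IL50-7, were not called (limma adjusted p = 0.431 and 0.356), and their 95% intervals ran from -0.11 to 0.30 and from -0.09 to 0.32.

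The PIP2 group, whose proteins are the plasma membrane's main water channels, moved in both directions. PIP2-4 (LOC4343119) rose in the panicle of both lines, PIP2-2 and PIP2-7 fell in both, and PIP2-5 fell in IL50-7. PIP2-5 is known in rice mainly from roots, and here its RNA was above background in all leaves and panicles. PIP2-4, PIP2-5 and PIP2-1 are neighbouring protein-coding genes on chromosome 7 in the RefSeq gene order, and their brightest probe sets gave a rise, a fall and no call.

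PIP2-4 was 5.99-fold higher in the panicle of KMR3 and 10.6-fold higher in that of IL50-7. In KMR3 it read 7.01, 6.89 and 7.02 in leaves and 8.87, 9.79 and 10.02 in panicles. In IL50-7 it read 5.18, 6.54 and 7.36 in leaves and 9.80, 9.75 and 9.76 in panicles. The organs did not overlap. The IL50-7 leaves were spread the most (6.36 ± 1.10, SD, n = 3), with replicate 1 lowest, and the IL50-7 panicles the least (9.77 ± 0.03). The differences were 2.58 ± 0.45 in KMR3 (limma adjusted p = 0.00075) and 3.41 ± 0.45 in IL50-7 (limma adjusted p = 0.000108).

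PIP2-5 (LOC4343121) read 6.90, 6.78 and 7.28 in KMR3 leaves and 5.69, 6.79 and 6.08 in KMR3 panicles, where replicate 2 reached the leaf range. Its IL50-7 values were 7.40, 8.23 and 7.39 in leaves and 5.97, 6.69 and 5.38 in panicles, which did not overlap. The fall of -1.66 ± 0.39 in IL50-7 was called (3.16-fold, limma adjusted p = 0.00472), and the difference of -0.80 ± 0.39 in KMR3 was not (limma adjusted p = 0.114). The test of the difference between these 2 values, the interaction, gave -0.86 ± 0.55 and was not called (unadjusted p = 0.144), so the lines are not shown to differ.

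The probe sets of PIP2-1 (LOC4343122), a gene next to PIP2-5, disagreed. The brightest, whose probes match alternative transcripts of the gene, stayed between 12.62 and 12.92 on all arrays and was not called in either line (-0.06 ± 0.10 and 0.17 ± 0.10, limma adjusted p = 0.62 and 0.19). A further one, in which some probes match other sequences, also showed no called difference (0.08 in KMR3 and 0.06 in IL50-7). The dimmest read 8.94, 10.25 and 8.47 in KMR3 leaves, 6.45, 5.87 and 5.25 in KMR3 panicles, 8.11, 9.24 and 8.61 in IL50-7 leaves, and 5.65, 5.44 and 5.98 in IL50-7 panicles. On this probe set the organs did not overlap, and the panicle was lower by -3.37 ± 0.46 in KMR3 (10.3-fold, limma adjusted p = 0.000133) and -2.96 ± 0.46 in IL50-7 (7.80-fold, limma adjusted p = 0.000327). Which transcript or end of PIP2-1 each probe set reads is not given in the sources used here, so no direction is given for the gene.

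**Figure D3:**
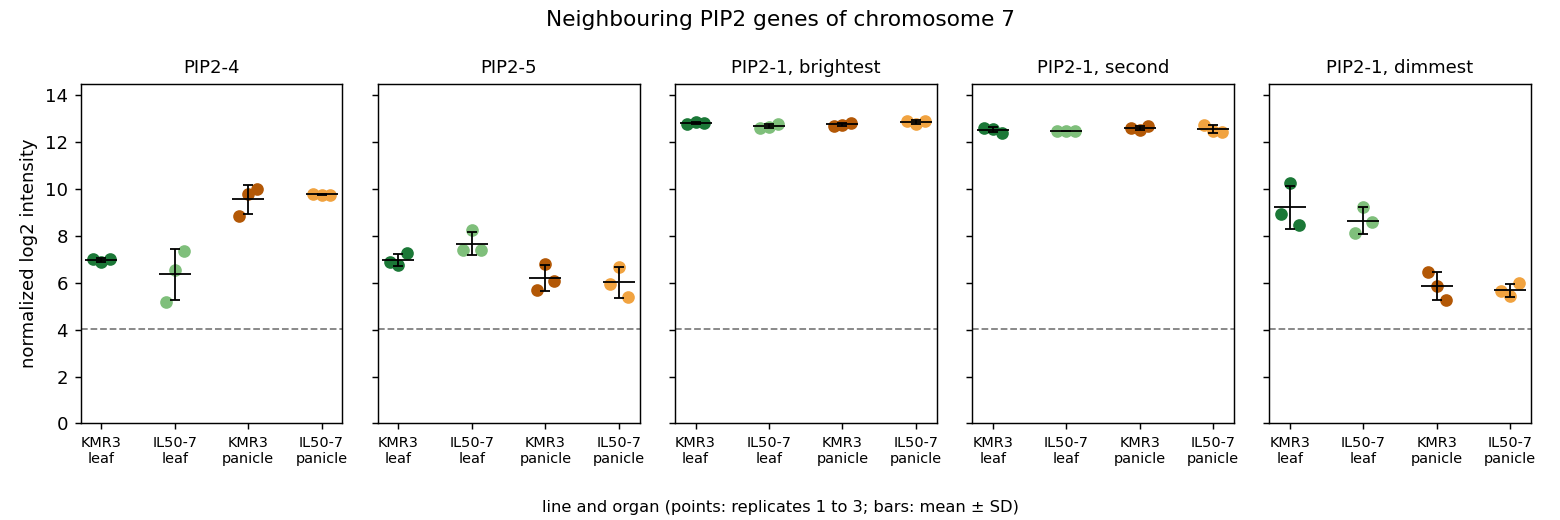
Normalized log2 intensity (y axis) of PIP2-4, PIP2-5 and the 3 probe sets of PIP2-1, neighbouring genes on chromosome 7, in the 4 line and organ groups (x axis), with points for arrays, bars for mean ± SD and a dashed line at the background of 4.01. PIP2-4 is higher in panicles, and of the PIP2-1 probe sets only the dimmest is lower there.

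PIP2-2 (LOC4330049, chromosome 2) was represented by a probe set whose probes match several transcripts, which may include those of other genes. In KMR3 it read 12.68, 13.09 and 12.59 in leaves and 11.61, 12.04 and 11.22 in panicles. In IL50-7 it read 12.36, 12.56 and 12.69 in leaves and 11.12, 12.22 and 10.95 in panicles. The organs did not overlap, and panicle replicate 2 was the highest in both lines, as for PIP1-3. The fall was -1.16 ± 0.31 in KMR3 (2.23-fold, limma adjusted p = 0.00954) and -1.11 ± 0.31 in IL50-7 (2.16-fold, limma adjusted p = 0.0123). The IL50-7 call was lost without IL50-7 panicle replicate 3 (-0.87 ± 0.32, limma adjusted p = 0.0531). A second PIP2-2 probe set ran from 0.26 to 10.20 with replicates of a group as far apart as 0.96 and 10.20 (KMR3 leaves), and gave no call (1.35 ± 2.76 in KMR3, -2.07 ± 2.76 in IL50-7). When the probe sets were averaged, PIP2-2 was called in neither line and its KMR3 difference was 0.094.

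PIP2-7 (LOC4347729, chromosome 9), a member studied in rice under chilling, was bright in leaves, at 13.01, 13.15 and 13.05 in KMR3 and 13.11, 12.99 and 13.01 in IL50-7. In panicles it read 12.23, 12.37 and 11.68 in KMR3 and 11.80, 12.45 and 12.01 in IL50-7. No panicle array reached the leaves, and the lowest panicle values were those of the pair with the highest RAFTIN1. The fall was -0.98 ± 0.19 in KMR3 (1.97-fold, limma adjusted p = 0.00166) and -0.95 ± 0.19 in IL50-7 (1.93-fold, limma adjusted p = 0.00207).

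The remaining PIP2 genes were not called. PIP2-6 (LOC4335226, chromosome 4), which carries arsenite as well as water when expressed in frog oocytes, lay between 10.65 and 11.11 in leaves and between 11.07 and 12.34 in panicles. Its differences were 0.46 ± 0.31 in KMR3 and 0.77 ± 0.31 in IL50-7 (limma adjusted p = 0.253 and 0.0655). The IL50-7 difference was called without KMR3 panicle 3 (0.77, limma adjusted p = 0.0443), IL50-7 panicle 2 (0.98, limma adjusted p = 0.0388) or IL50-7 panicle 3 (0.95, limma adjusted p = 0.0476). The 2 highest panicle values, 11.96 and 12.34, came from the pair with the highest RAFTIN1, KMR3 panicle 3 and IL50-7 panicle 1. PIP2-8 (LOC4334873, chromosome 3) ranged from 0.87 to 4.23 and was too dim to test.

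Among the tonoplast channels TIP1-2 fell in the panicle by about as much as PIP1-3 did, while TIP4-2 rose in both lines and TIP3-1 in KMR3. TIP1-2 (LOC4324303, chromosome 1), a vacuolar channel that passes water, was 18.6-fold lower in KMR3 and 14.0-fold lower in IL50-7 panicles. In KMR3 it read 12.95, 13.12 and 13.04 in leaves and 9.23, 9.51 and 7.72 in panicles. In IL50-7 it read 12.85, 12.95 and 12.97 in leaves and 7.87, 9.18 and 10.31 in panicles. The leaves were tight and near the top of the scale (13.04 ± 0.09 and 12.92 ± 0.06, SD, n = 3) and the panicles spread over more than 2.5 log2 units, without reaching the leaves. The 2 lowest panicles were again KMR3 panicle 3 and IL50-7 panicle 1, and the highest was IL50-7 panicle 3. The differences were -4.22 ± 0.55 in KMR3 (limma adjusted p = 8.89e-05) and -3.81 ± 0.55 in IL50-7 (limma adjusted p = 0.000183).

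TIP4-2 (LOC4324277, chromosome 1), a further tonoplast member read by a probe set with some probes matching other sequences, was higher in the panicle. Its KMR3 leaves read 5.12, 4.67 and 4.41 and its KMR3 panicles 7.61, 7.69 and 7.80. The IL50-7 leaves read 5.96, 3.85 and 2.74, of which 1 was above background, and the IL50-7 panicles 7.51, 7.84 and 7.92. All 6 panicle arrays lay within a narrow range and above every leaf array. The difference was 2.96 ± 0.61 in KMR3 (7.79-fold, limma adjusted p = 0.00216). In IL50-7 it was 3.57 ± 0.61 (limma adjusted p = 0.000642), with leaves at 4.18 ± 1.64 and panicles at 7.76 ± 0.22 (SD, n = 3).

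TIP3-1 (LOC4348981, chromosome 10) belongs to a subgroup known from the protein storage vacuoles of seeds. Its probes match several transcripts, which may include those of other genes. The leaves of both lines were below background, at 0.98, 0.26 and 3.40 in KMR3 and 3.65, 3.75 and 3.37 in IL50-7. All panicles were above it, at 4.57, 4.69 and 5.45 in KMR3 and 5.30, 4.64 and 5.22 in IL50-7. The organs did not overlap, and the panicle was at least 1.86-fold higher in KMR3 (limma adjusted p = 0.00209) and at least 2.06-fold higher in IL50-7, where it was not called (limma adjusted p = 0.107). The IL50-7 panicles were called without KMR3 leaf 3 (limma adjusted p = 0.0176). TIP3-2 (LOC4336464, chromosome 4), of the same subgroup, ranged from 3.13 to 5.57 apart from IL50-7 leaf 3 at 0.26, and its differences were not called (-1.54 ± 1.07 in KMR3, 0.63 ± 1.07 in IL50-7). Without IL50-7 leaf 3 the KMR3 fall, at -1.54 ± 0.39, was called (limma adjusted p = 0.00829), and the IL50-7 difference turned to -1.03 ± 0.43 (limma adjusted p = 0.0886), so the opposite signs of TIP3-2 in the lines rest on that array.

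**Figure D4:**
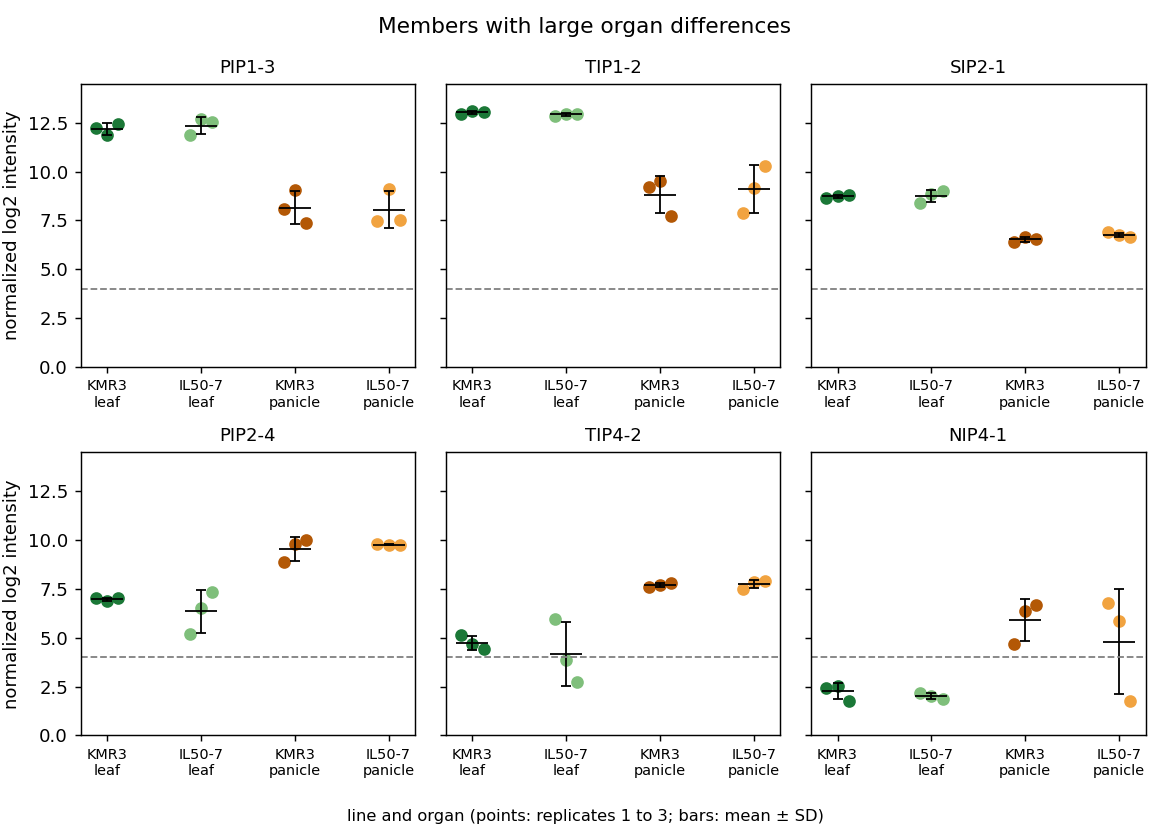
Normalized log2 intensity (y axis) of PIP1-3, TIP1-2, SIP2-1, PIP2-4, TIP4-2 and NIP4-1 in the 4 line and organ groups (x axis), with points for arrays, bars for mean ± SD and a dashed line at the background of 4.01. The first 3 are lower in every panicle than in every leaf, and NIP4-1 is above background on all 3 KMR3 panicles and on 2 of 3 IL50-7 panicles.

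The other tonoplast genes gave no called difference. TIP1-1 (LOC4331608, chromosome 3), a bright vacuolar water channel, stayed between 12.82 and 13.22 (0.15 ± 0.10 in KMR3 and 0.26 ± 0.10 in IL50-7, limma adjusted p = 0.261 and 0.0569). TIP2-2 (LOC4340941, chromosome 6), of a subgroup that also carries ammonia in wheat and Arabidopsis, lay between 12.02 and 12.93, with differences of -0.26 ± 0.17 and -0.22 ± 0.17. Some of its probes match other sequences. TIP2-1 (LOC4330207, chromosome 2), described as a root gene in rice, was dim, from 2.46 to 5.63, with differences of -0.42 ± 0.85 and -0.78 ± 0.85. The probes of TIP2-1 match several transcripts, as those of TIP3-1 do. TIP4-1 (LOC4338163, chromosome 5), which passes water and glycerol, lay between 9.82 and 11.52, with differences of -0.56 ± 0.44 and -0.13 ± 0.44. Its 2 highest panicles, 11.30 and 11.52, were those of KMR3 panicle 3 and IL50-7 panicle 1, and without that pair the KMR3 panicles of TIP4-1 were called lower than the leaves (-0.998 ± 0.29, limma adjusted p = 0.0196). That pair was chosen after the data had been seen.

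The NIP group includes the silicon channels. NIP2-1 (LOC4330713, chromosome 2), known as Lsi1, takes silicic acid into rice roots, and NIP2-2 (LOC4340558, chromosome 6), known as Lsi6, unloads it from the xylem in leaves and moves it between vessels at the node below the panicle. The RNA of both was above background in both organs. The silicic acid exporter LSI2, with which NIP2-1 works in the root, read 0.26 to 1.15 and was below background on every array.

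NIP2-2, whose probe set has some probes matching other sequences, fell in the panicle. It read 11.24, 10.85 and 10.30 in KMR3 leaves and 8.89, 8.67 and 9.28 in KMR3 panicles. In IL50-7 it read 10.10, 10.20 and 10.64 in leaves and 9.09, 8.25 and 7.45 in panicles. No panicle reached a leaf value. The fall was -1.85 ± 0.37 in KMR3 (3.60-fold, limma adjusted p = 0.00188) and -2.05 ± 0.37 in IL50-7 (4.14-fold, limma adjusted p = 0.000971).

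NIP2-1 read 8.92, 9.60 and 9.24 in KMR3 leaves, 10.07, 9.90 and 7.99 in KMR3 panicles, 8.30, 8.59 and 8.78 in IL50-7 leaves, and 8.05, 9.82 and 8.89 in IL50-7 panicles. The panicles were spread around the leaves, and the lowest were KMR3 panicle 3 and IL50-7 panicle 1. The organ differences were 0.07 ± 0.54 in KMR3 and 0.37 ± 0.54 in IL50-7 (limma adjusted p = 0.929 and 0.61), with 95% intervals from -1.11 to 1.24 and from -0.81 to 1.54. Without those 2 arrays they were 0.73 ± 0.29 in KMR3 and 0.80 ± 0.29 in IL50-7, still not called (limma adjusted p = 0.0682 and 0.0509).

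NIP4-1 (LOC4326119, chromosome 1) has relatives in Arabidopsis that are known from pollen. It was below background in all 6 leaves, at 2.42, 2.55 and 1.78 in KMR3 and 2.17, 2.02 and 1.89 in IL50-7. The panicles read 4.67, 6.35 and 6.67 in KMR3 and 6.80, 5.84 and 1.77 in IL50-7, so 5 of 6 panicle arrays were above background. The exception, IL50-7 panicle 3, was also the panicle with the lowest C6 and CYP703A3. The panicle was at least 3.70-fold higher in KMR3 (limma adjusted p = 0.0145) and at least 1.73-fold higher in IL50-7, which just missed the call (limma adjusted p = 0.0504). Without IL50-7 panicle 3 the IL50-7 panicles were called higher (limma adjusted p = 0.000424), and without KMR3 panicle 3 the KMR3 panicles were not called (limma adjusted p = 0.051). The part of tapetum and pollen RNA in these values was not tested. The summed intensity of the 7 tapetum and pollen markers was 123 to 170 in leaves, 17833 to 30593 in KMR3 panicles and 8565 to 28386 in IL50-7 panicles, and of the 7 genes 4 in KMR3 leaves and 3 in IL50-7 leaves lay below background on every array.

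NIP1-1 (LOC4328814, chromosome 2), which carries arsenite in rice, read 3.91 to 6.80 in leaves and 5.88 to 7.95 in panicles. Its differences, 1.70 ± 0.71 in KMR3 and 0.93 ± 0.71 in IL50-7, were not called (limma adjusted p = 0.0695 and 0.318), although that in KMR3 was called without KMR3 leaf 2 (2.17 ± 0.77, limma adjusted p = 0.0431). Its 2 highest panicles, 7.94 and 7.95, were KMR3 panicle 3 and IL50-7 panicle 1. NIP3-1 (symbol DTE1, chromosome 10), a boric acid channel, lay between 0.26 and 4.08, with 1 of 12 arrays above background, and was not tested.

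Both SIP genes fell in the panicle of both lines. SIP2-1 (LOC4332668, chromosome 3), whose Arabidopsis relative lies in the endoplasmic reticulum, had the smallest adjusted p of the family. In KMR3 it read 8.66, 8.74 and 8.79 in leaves and 6.397, 6.63 and 6.54 in panicles. In IL50-7 it read 8.39, 8.83 and 9.03 in leaves and 6.88, 6.75 and 6.67 in panicles. The organs lay well apart, with tight replicates (8.73 ± 0.06 and 6.52 ± 0.12, SD, n = 3, in KMR3). The fall was -2.21 ± 0.19 in KMR3 (4.62-fold, limma adjusted p = 4.74e-06) and -1.98 ± 0.19 in IL50-7 (3.96-fold, limma adjusted p = 9.52e-06).

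SIP1-1 (LOC4325361, chromosome 1), the other small basic member, read 10.34, 10.70 and 10.58 in KMR3 leaves, 9.28, 9.26 and 9.66 in KMR3 panicles, 10.39, 10.54 and 10.53 in IL50-7 leaves, and 9.73, 9.34 and 9.08 in IL50-7 panicles. No panicle array reached the leaves. The fall was -1.14 ± 0.19 in KMR3 (2.20-fold, limma adjusted p = 0.000462) and -1.10 ± 0.19 in IL50-7 (2.15-fold, limma adjusted p = 0.000578).

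Set side by side, the subfamilies differed in the direction of their median panicle to leaf difference. In KMR3 and IL50-7 it was -1.18 and -1.04 for PIP1, -0.43 and -0.39 for PIP2, -0.34 and 0.06 for TIP, 0.88 and 0.65 for NIP, and -1.67 and -1.54 for SIP. The medians of PIP1 and SIP rest on 3 and 2 genes. Those of NIP rest on 4 genes and lie between NIP1-1 and NIP2-1, which were called in neither line. NIP2-2 was called lower in both lines, so the NIP genes did not rise as a group. The TIP medians also lie between genes called in neither line. Those of PIP2 depend on the brightest probe set of PIP2-1, which was not called. The dimmest probe set of that gene was lower in the panicle in both lines. Over all 23 tested members the median was -0.42 in KMR3 and -0.13 in IL50-7. PIP1 and SIP were the subfamilies with no gene called higher in either line, and in IL50-7 no NIP gene was called higher either. These medians were not tested against each other.

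The question behind the line comparison, from the series title, is what sets the introgression line apart in expression. No aquaporin gene was called between the lines. In the flag leaf 0 of 23 were called (all probe sets, 0.0729%), with 1 at an unadjusted p under 0.05 (all probe sets, 1665 of 34316). In the panicle 0 of 23 were called (all probe sets, 0%), with 0 at an unadjusted p under 0.05. For the interaction, that is, whether the line difference differs between organs, 0 of 23 were called (all probe sets, 0.0291%). There 0 were at an unadjusted p under 0.05 (all probe sets, 1342 of 34316). With limma, 1128 of 34316 probe sets had an unadjusted p under 0.05 between the lines in the panicle and 0 passed after adjustment.

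The differences between lines were mostly small. In the flag leaf 21 of 23, and in the panicle 22 of 23, were under 1 log2 unit in size. The median was -0.11 in the leaf and -0.00 in the panicle. The precision depends on the gene. The 95% interval of the leaf difference ran from -0.25 to 0.17 for PIP1-2 and from -0.47 to 0.35 for SIP1-1, but from -3.99 to 0.70 for TIP3-2, so a missing call does not show equal levels.

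The gene with the smallest p between leaves was TIP3-1 (unadjusted p = 0.0127, limma adjusted p = 0.785). Its 6 leaf arrays all lie below background, so neither a size nor a direction is given. In the panicle the smallest p was that of NIP2-2, at -0.68 ± 0.37 (IL50-7 minus KMR3, unadjusted p = 0.0936). The panicles of the lines overlapped, since 9.09 in IL50-7 lay above 8.89 and 8.67 in KMR3. Leaf arrays of the lines did not overlap for NIP2-1 (-0.70 ± 0.54), PIP2-1 (-0.14 ± 0.10) and PIP2-5 (0.69 ± 0.39), and panicle arrays did not for SIP2-1 (0.25 ± 0.19). Among all probe sets 4.02% had every IL50-7 leaf above every KMR3 leaf and 5.14% the reverse, and in the panicle 5.15% and 4.07%.

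Without the panicle arrays that went against their labels, KMR3 replicate 3 and IL50-7 replicate 2, still 0 of 23 aquaporin genes were called between panicles, while 51 probe sets in all were called higher and 74 lower in IL50-7. At an unadjusted p under 0.05 there were 4 of 23 members, all lower in IL50-7, beside 8.11% of all probe sets. The largest was NIP2-1, at -1.51 ± 0.32 (limma adjusted p = 0.11), followed by PIP1-3 at -1.07 ± 0.36 (limma adjusted p = 0.377), PIP2-2 at -0.79 ± 0.21 (limma adjusted p = 0.235) and PIP2-7 at -0.39 ± 0.14 (limma adjusted p = 0.409). This fit kept IL50-7 panicle 1 but not KMR3 panicle 3, the other array with the highest RAFTIN1. Line and that state cannot be told apart in it. With KMR3 panicle 3 and IL50-7 panicle 1 left out instead, NIP2-1 was at -0.63 ± 0.32 and PIP1-3 at -0.24 ± 0.51. In that fit PIP2-2 was at -0.24 ± 0.35 and PIP2-7 at -0.07 ± 0.15. Without the arrays that went against their labels, the panicles of NIP2-1 read 10.07 and 9.90 in KMR3 and 8.05 and 8.89 in IL50-7, which do not overlap. The ratios of 3' to 5' signal did not overlap on these arrays either. For GAPDH they were 23.3 and 16.0 in KMR3 and 8.72 and 7.68 in IL50-7. Those for actin were 13.4 and 11.7 in KMR3 and 6.23 and 4.95 in IL50-7. Line and these ratios cannot be told apart there. For the interaction without the arrays that went against their labels, the smallest adjusted p of a member was 0.684 (limma), so none was called. At an unadjusted p under 0.05 there was 1 of 23, PIP1-3 (-1.24 ± 0.46, limma unadjusted p = 0.0238), beside 6.41% of all probe sets. With KMR3 panicle 3 and IL50-7 panicle 1 left out instead there were 0 of 23. The organ calls without the arrays that went against their labels lost 1, NIP4-1 in KMR3 (limma adjusted p = 0.0586), and gained 1, PIP2-6 higher in the IL50-7 panicle (0.98 ± 0.29, limma adjusted p = 0.0219).

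**Figure D5:**
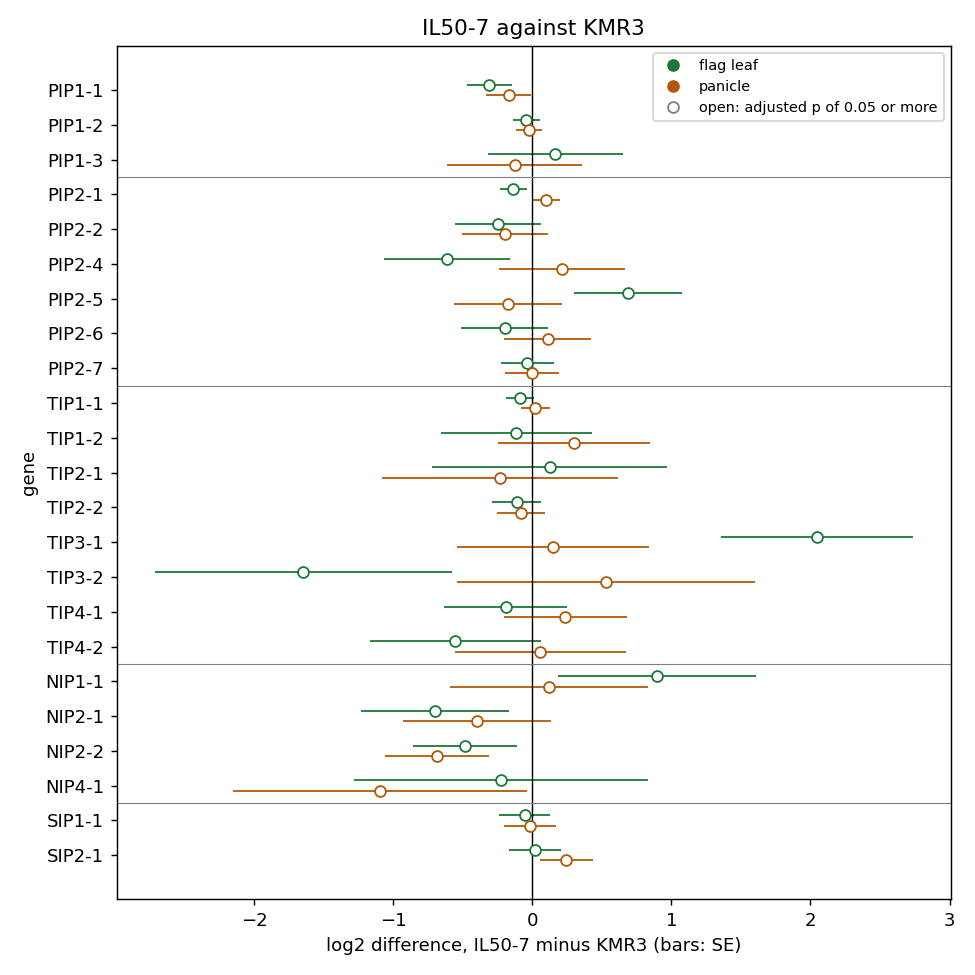
IL50-7 minus KMR3 log2 difference (x axis) of each tested aquaporin gene (y axis) in flag leaf and panicle, with bars for the SE and open points where the adjusted p was 0.05 or more. All points are open, and all but TIP3-1 and TIP3-2 in the leaf and NIP4-1 in the panicle lie within 1 log2 unit of 0.

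Few partner genes of the aquaporins could be followed by name. Of 29 listed names of silicon and boron exporters, proton pumps and tonoplast carriers, 4 matched a gene with a probe set. They were LSI2, SUT2, VATP-P1 and VP1, of which VP1 was left out. The name SUT2 belongs to 2 sucrose carrier genes. LOC9266530 was lower in the panicle by -1.999 ± 0.33 in KMR3 and -2.31 ± 0.33 in IL50-7 (limma adjusted p = 0.000483 and 0.000176). LOC4331221 was higher, by 1.11 ± 0.21 and 0.75 ± 0.21 (limma adjusted p = 0.00119 and 0.0119). VATP-P1, a vacuolar proton ATPase subunit, was called higher in the IL50-7 panicle (0.46 ± 0.16, limma adjusted p = 0.0326) and not in KMR3 (0.21 ± 0.16, limma adjusted p = 0.305).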

How the data were processed

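Total RNA was hybridised to 1-colour Affymetrix arrays, per the labels' protocols. The authors deposited 1 linear intensity per probe set and array. The submitters' processing notes list GCOS, version 1.2, with no role. The algorithm, the scaling between arrays and the genome build were not given in the sources used here. Trimmed means of the deposited arrays (2% at each end) ran from 125 to 296, so the deposited intensities were log2 transformed and quantile normalized, then floored at the 10th percentile. Leaving out 187 control probe sets, those with a mean above the 40th percentile were tested. Background was the 95th percentile of 23 unspiked control probe sets (intensity 16.1). Where all 3 arrays of the dimmer group lay below it, the fold is a bound, "at least". The method was tested on simulated data.

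limma (version 3.58.1, R 4.3.3) fitted 4 group means to 12 arrays with a trend (8 residual and 3.22 prior degrees of freedom) and Benjamini-Hochberg adjustment at 0.05. The number of arrays limits the precision. Each p-value sets a difference against the spread between arrays within groups, pooled over all 4 groups. An array of either line can therefore change a call in the other. Replicate arrays correlated at 0.896 to 0.961, and 0 pairs held identical values. Names, chromosome numbers and gene order came from the platform annotation and RefSeq (ASM3414082v1). The members, the marker and partner lists and the choice of array pairs were made with earlier results of these data known. All 12 values are given for up to 4 called genes per subfamily with the largest mean organ difference, the smallest p in each line comparison, and NIP2-1 and NIP2-2, and also for the PIP2-1 probe set that disagreed, which was chosen after its values were seen. Alternatives changed the scaling, floor, filter, probe set, prior, array weights, replicate block and arrays used. VP1 was left out because the symbol also names a seed transcription factor.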

Additional observations from a re-analysis of the deposited data

How the results depend on the processing

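Of 23 called panicle to leaf differences of aquaporin genes, 16 passed under all 25 alternatives, 6 were lost in some, and TIP3-1 in KMR3 passed wherever it was tested. Averaging a gene's probe sets turned PIP2-2 in KMR3 to 0.094 and PIP2-1 in IL50-7 to -0.91 (limma adjusted p = 0.00159), because the probe sets disagree. On the deposited scale the genes higher in the KMR3 panicle rose from 4 to 5 and those lower fell from 8 to 5, losing PIP2-2, PIP2-7 (-0.64, limma adjusted p = 0.0667) and SIP1-1 (-0.68, limma adjusted p = 0.134), and PIP2-5 in IL50-7 was lost (-1.32, limma adjusted p = 0.0727). Over all probe sets the deposited scale raised the KMR3 calls higher in the panicle from 7727 to 8874. It cut those lower from 8587 to 4190. The genes higher in the KMR3 panicle fell from 4 to 2 with the filter at the 60th percentile, which leaves NIP4-1 and TIP3-1 untested. Those higher in the IL50-7 panicle rose from 2 to 4 with the floor at the 25th percentile, with array weights, and without IL50-7 panicle replicate 3, and the cause was not tested. Leaving out each of the 12 arrays in turn gave 3 to 5 higher and 8 to 9 lower genes in KMR3, 2 to 4 higher and 8 to 9 lower in IL50-7, and 0 to 0 in the leaf, panicle and interaction comparisons. Of 69 uncalled differences, which include those between lines in leaf and panicle, 9 passed under some alternative. All 9 were panicle to leaf differences, and no line difference passed. With the replicate number as a block the counts were 4 higher and 8 lower in KMR3 and 2 higher and 9 lower in IL50-7, with 0 between lines. Deviations from the group means correlated at -0.33 to 0.40 in 18 pairs of same-numbered arrays from different groups, 4 of them above 0.1. In differently numbered pairs the correlation ran from -0.47 to 0.59. The best match of an array in another group had its own number in 17 of 36 cases. With 3 arrays in each group, many such matches arise by chance. Whether the arrays are paired by number was not tested, and no conclusion on it is drawn from these values. Without the pair KMR3 panicle 3 and IL50-7 panicle 1 there were 4 higher and 9 lower in KMR3 and 2 higher and 9 lower in IL50-7. Signals near background limit TIP3-1, NIP4-1, TIP3-2 and the leaves of TIP4-2. Signals near the top of the scale limit PIP1-2, PIP2-1, TIP1-1 and TIP2-2 and the leaves of TIP1-2, PIP1-1, PIP1-3, PIP2-2 and PIP2-7, and whether they are saturated was not tested.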
